A study of Mus musculus with 4 samples.

Results

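Transcripts of 45 genes of cholesterol, fatty acid and phosphatidylcholine synthesis were followed in lamin B1-depleted and control MLE12 cells. The 45 were taken by name from the 18018 rows of the deposited table: 44 by gene symbol, and Msmo1 by its Ensembl identifier, because it is listed under the older symbol Sc4mol. All 45 were among the 11639 genes with an adjusted p-value, which are called tested genes here. MLE12 is a mouse lung epithelial line that was established from lung tumors of mice in which the promoter of the surfactant protein C gene drives a viral T antigen, so it is a transformed model of the alveolar type II cell. The groups compared were Lmnb1 KD cells, cells carrying an shRNA against Lmnb1 (2 libraries), and control cells (2 libraries), both kept in 2 µg/ml puromycin as stable lines. Neither the labels nor the methods say which of the study's shRNAs the sequenced cells carried, and nothing says that the 2 libraries of a group came from separate cultures or separate transductions. The p-values therefore cover no more than the differences among these 4 libraries, and those may be technical.

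Cholesterol is built from acetyl-CoA through mevalonate, the isoprenoids, squalene and lanosterol. The pathway is governed by the SREBP transcription factors, which SCAP escorts out of the endoplasmic reticulum when sterols are scarce and which the INSIG proteins hold back when sterols are plentiful. SREBP1 mainly serves fatty acid genes and SREBP2 mainly sterol genes. In the lung, alveolar type II cells make fatty acids in order to build the saturated phosphatidylcholine that, with the surfactant proteins, lowers the surface tension of the alveoli. Phosphatidylcholine is assembled by the choline kinase, cytidylyl-transferase and cholinephosphotransferase steps and remodeled by LPCAT1.

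The values used are those of the deposited comparison: a mean level per gene over the 4 libraries (a mean normalized count), a log2 fold change of Lmnb1 KD over control, a p-value and its adjusted form. Values per library were not analysed here, so the level of each group was derived from the mean level and the fold change, and no replicate SD stands beside it. The error given is the standard error (SE) recovered from the fold change and its p-value, and intervals are 95% intervals from that SE. How many of the libraries show a direction cannot be said. The targeted gene fits the labels: Lmnb1 stood at 1617 normalized counts in Lmnb1 KD cells and 6274 in control cells, a log2 fold change of -1.96 (SE 0.11, deposited adjusted p = 1.3e-66). The median mean level of all tested genes was 894, and the lowest was 33.7.

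The label of the line was checked against marker genes. Of 10 alveolar type II markers, 7 had values, and their summed level was 15213 in Lmnb1 KD cells and 12325 in control cells. Sftpb (surfactant protein B) had a mean level of 6189, whereas Sftpa1 (1.57) and Napsa (11.2) were close to 0. Sftpc, the surfactant protein C gene, was higher in Lmnb1 KD cells (1391 against 395 in control cells, log2 fold change 1.82, deposited adjusted p = 3.5e-40), and so were Abca3, the lamellar body lipid transporter (0.34), and Nkx2-1, a lung epithelial transcription factor (0.32). The calls of Abca3 (adjusted p = 0.24) and Nkx2-1 (adjusted p = 0.17) were lost, and that of Sftpc held, when the trend of fold change on GC content and transcript length, described below, was subtracted. The 6 epithelial markers summed to 44708 in Lmnb1 KD cells and 41321 in control cells, most of it Krt19 (mean level 31695) and Krt8 (9525). Epcam was low at a mean level of 77.4, and Krt18, at 12.9, had no adjusted p-value. Krt7 alone was called higher (0.86). The 5 fibroblast markers summed to 11015 in Lmnb1 KD cells and 13842 in control cells, nearly all of it Dcn (log2 fold change -0.34, called lower, but -0.10 with adjusted p = 0.64 once the trend was subtracted), while Col1a1 had a mean level of 131 and Col3a1 of 1.40. Pdgfra, at a mean level of 36.4, was called higher (1.22). The leukocyte markers with values, Cd68 and Lyz2, summed to 72.6 in Lmnb1 KD cells and 59.5 in control cells, and the endothelial ones, Pecam1 and Kdr, to 29.4 in Lmnb1 KD cells and 13.4 in control cells. The part of these shifts in the lipid genes was not tested, and in such bulk RNA fewer expressing cells and less RNA per cell cannot be told apart.

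Promoter sequences bear on these genes because SREBP acts through short DNA elements. In the RefSeq promoters of GRCm38.p6 (250 bases before to 50 after a gene's start), 39 of the 45 genes had at least 1 entry. Scd1, Scd2, Fads1, Fdft1, Fdps and Sqle had none and were not searched. The search covered 3 motifs on both strands: the sterol response element TCACCCCAC, which is the form known from the human LDL receptor promoter; the E-box CACGTG, which reads the same on both strands; and CCAAT, the site of NF-Y, a factor that works beside SREBP. Capitals below mark these letters on either strand, and the motifs do not overlap in the promoters shown. The 6 promoters shown are those of Hmgcs1 (chr13:119690101-119690400, plus strand) and Pcyt1a (chr16:32430671-32430970, plus strand), which hold the sterol response element, Mvk (chr5:114444019-114444318, plus strand), the sterol enzyme called higher, Chka (chr19:3851523-3851822, plus strand) and Chpt1 (chr10:88503921-88504220, minus strand), the genes called lower, and Mgll (chr6:88724162-88724461, plus strand), the gene with the largest difference. Motifs and promoters were chosen after the values were seen, and other motif strings that were looked at are not reported.
Hmgcs1: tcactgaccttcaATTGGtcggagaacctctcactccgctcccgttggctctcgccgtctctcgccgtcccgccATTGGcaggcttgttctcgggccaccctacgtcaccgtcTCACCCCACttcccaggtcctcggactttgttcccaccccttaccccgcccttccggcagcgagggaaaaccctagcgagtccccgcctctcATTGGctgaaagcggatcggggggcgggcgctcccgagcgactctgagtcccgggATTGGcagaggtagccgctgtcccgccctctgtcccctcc
Mvk: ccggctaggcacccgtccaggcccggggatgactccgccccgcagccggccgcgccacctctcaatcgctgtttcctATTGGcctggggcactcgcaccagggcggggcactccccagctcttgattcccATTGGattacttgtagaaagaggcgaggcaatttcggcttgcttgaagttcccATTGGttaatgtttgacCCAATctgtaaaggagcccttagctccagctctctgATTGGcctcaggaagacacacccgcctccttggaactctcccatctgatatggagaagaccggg
Pcyt1a: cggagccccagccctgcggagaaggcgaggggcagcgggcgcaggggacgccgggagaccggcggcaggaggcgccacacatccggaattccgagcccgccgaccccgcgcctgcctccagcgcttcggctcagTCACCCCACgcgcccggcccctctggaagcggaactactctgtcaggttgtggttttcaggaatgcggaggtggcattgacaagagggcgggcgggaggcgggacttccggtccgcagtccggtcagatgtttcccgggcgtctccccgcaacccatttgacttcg
Chka: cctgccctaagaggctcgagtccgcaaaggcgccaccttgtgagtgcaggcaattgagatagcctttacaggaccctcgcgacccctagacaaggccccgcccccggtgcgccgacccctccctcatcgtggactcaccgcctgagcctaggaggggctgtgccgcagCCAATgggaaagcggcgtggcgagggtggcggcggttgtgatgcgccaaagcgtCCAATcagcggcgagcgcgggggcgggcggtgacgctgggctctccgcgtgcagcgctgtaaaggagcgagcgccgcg
Chpt1: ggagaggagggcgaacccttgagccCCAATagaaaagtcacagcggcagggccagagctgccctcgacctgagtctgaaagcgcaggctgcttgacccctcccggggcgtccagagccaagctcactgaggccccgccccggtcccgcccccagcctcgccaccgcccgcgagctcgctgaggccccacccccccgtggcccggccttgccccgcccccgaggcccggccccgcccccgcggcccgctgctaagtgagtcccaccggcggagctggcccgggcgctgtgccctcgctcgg
Mgll: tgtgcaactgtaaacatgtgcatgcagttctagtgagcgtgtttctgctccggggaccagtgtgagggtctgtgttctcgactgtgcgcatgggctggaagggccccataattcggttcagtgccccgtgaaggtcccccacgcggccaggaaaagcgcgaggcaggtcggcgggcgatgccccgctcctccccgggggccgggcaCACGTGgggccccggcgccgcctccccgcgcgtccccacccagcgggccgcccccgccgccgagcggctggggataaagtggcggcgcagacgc

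In Hmgcs1 a sterol response element stands among 4 copies of CCAAT, and Mvk holds 5 copies of CCAAT without that element. The Pcyt1a window shown holds the sterol response element and no CCAAT, Chka has 2 copies of CCAAT, Chpt1 has 1, and Mgll has an E-box only. Over all 39 genes the sterol response element was present in 3 (7.69%; Acsl1, Hmgcs1 and Pcyt1a), against 0.614% of 27025 genes with a promoter entry and 0.749% of the 8545 tested genes among them. CCAAT was present in 29 of the 39 (74.4%), against 41.1% of all genes and 43.8% of tested genes. The E-box was present in 7 of the 39 (17.9%), against 8.09% of all genes and 12.1% of tested genes. None of the 3 genes with the sterol response element was called, and of the 7 with the E-box only Mgll was. Of the 29 with CCAAT, 4 were called higher, 2 lower and 23 did not pass. The share called among all tested genes was 25.1% (12.0% higher, 13.1% lower). Sets of 3 and 7 genes are too small to be set apart from that share. Of the called genes, Scd1 and Scd2 had no promoter entry, so nothing is known here of their motifs. These matches describe the letters in the windows and were not tested.

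Most of the 45 genes had similar levels in Lmnb1 KD and control cells, with Mgll as the exception. At an adjusted p under 0.05 with no fold threshold, 8 genes were higher in Lmnb1 KD cells (Srebf1, Srebf2, Mvk, Scd1, Scd2, Acsl3, Lpcat1 and Mgll), 2 were lower (Chka and Chpt1) and 35 did not pass. These 10 make up 22.2% of the genes, beside 25.1% called among all tested genes (12.0% higher, 13.1% lower), so the share is near the background. At the thresholds of the study, which add a fold change of at least 2 up or down and ask for a mean normalized count of 2 or more, Mgll alone was called, with 2.07% of all tested genes called (1.45% higher, 0.619% lower). The median log2 fold change of the 45 was 0.05, beside -0.01 for all tested genes, and they ranged from -0.45 (Chka) to 1.40 (Mgll). The median SE was 0.11. The 95% interval lay within a 1.5-fold difference in either direction for 37 of the 45 and within a 2-fold difference for 43, which bounds the size of change these libraries allow for them.

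**Figure D1:**
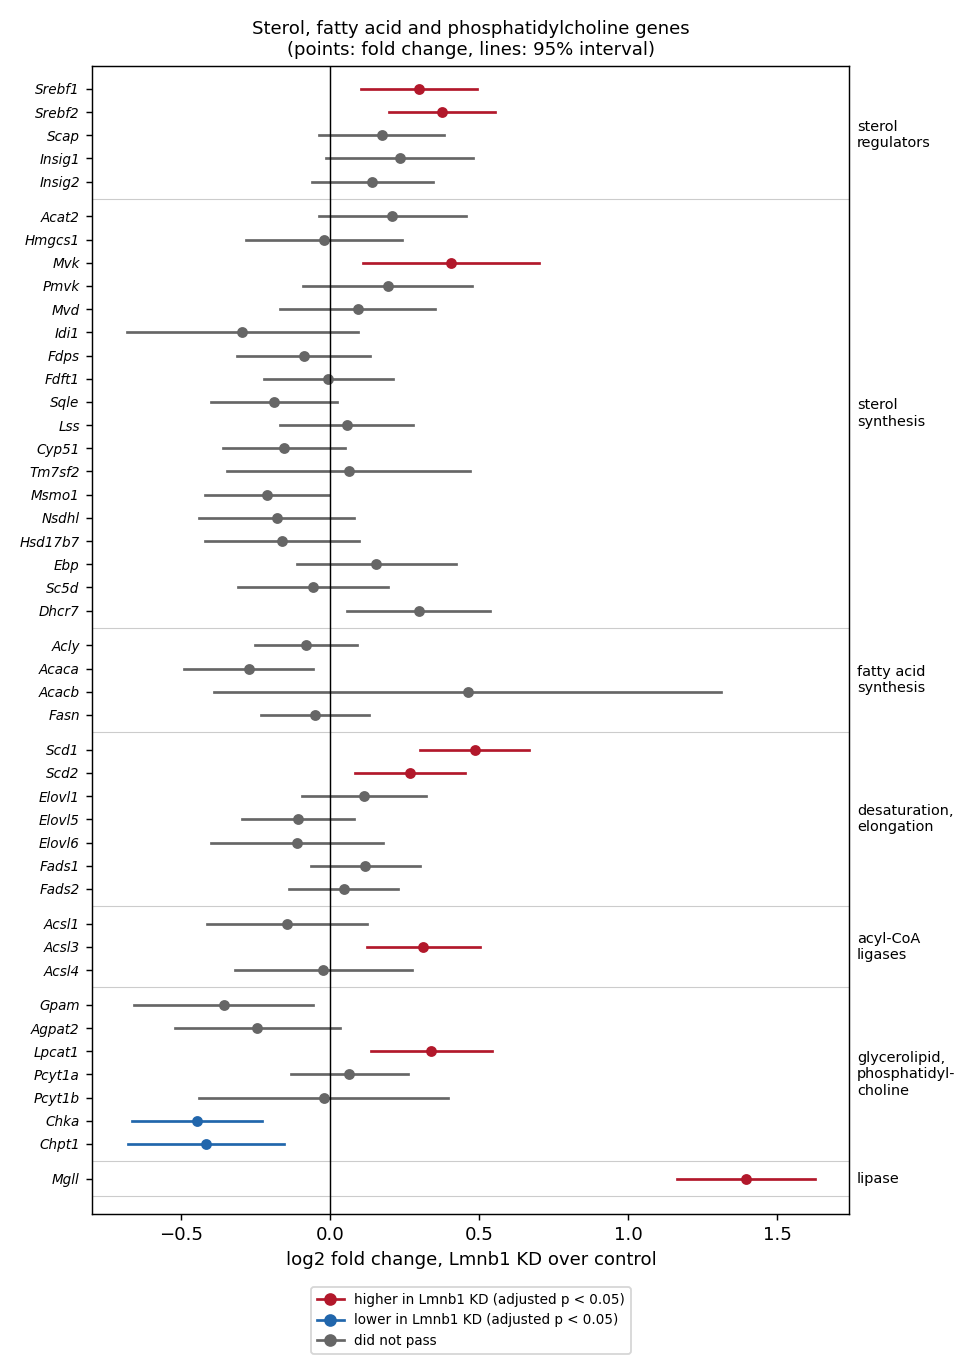
Log2 fold change (Lmnb1 KD over control, x axis) of each of the 45 genes (y axis), grouped by role. Points are fold changes, lines are 95% intervals, and color marks the 8 genes called higher, the 2 called lower and the 35 that did not pass. Mgll at 1.40 lies apart from the other genes, which range from -0.45 to 0.49.

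**Figure D2:**
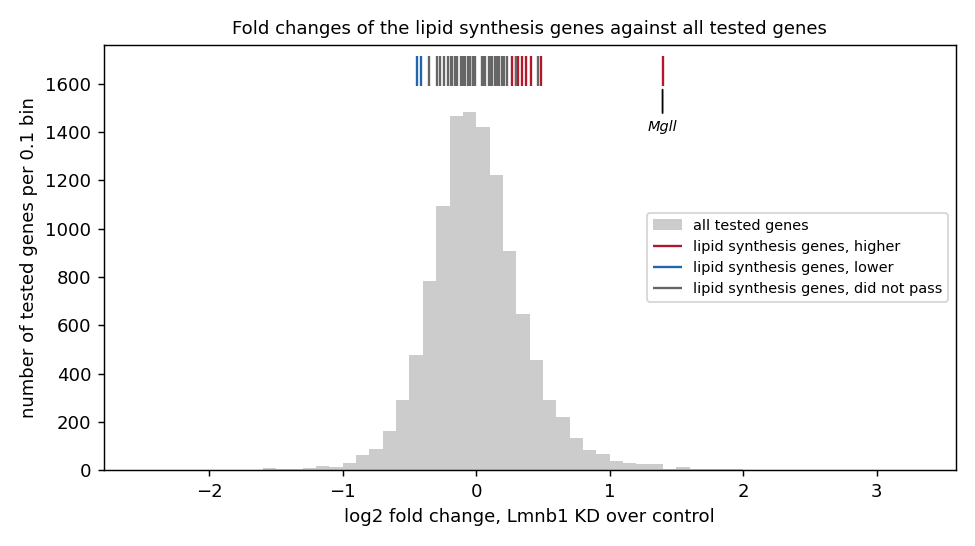
Histogram of the log2 fold changes (Lmnb1 KD over control) of the 11639 tested genes in bins of 0.1, with the 45 lipid synthesis genes as ticks above it, colored by call. All ticks except that of Mgll lie between -0.45 and 0.49.

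Of the 5 genes of the sterol-sensing machinery, 2 were called higher, beside 12.0% of all tested genes. All 5 had positive fold changes, as had 5622 of the 11639 tested genes, and their median was 0.23. Srebf1, Srebf2 and Scap lie among the most GC-rich genes, whose own median was 0.15. Srebf2 (chr15:82147181-82205379, plus strand), which encodes SREBP2, had 5048 normalized counts in Lmnb1 KD cells and 3891 in control cells (log2 fold change 0.38, SE 0.09, deposited adjusted p = 0.00039). Srebf1 (chr11:60199089-60222581, minus strand), encoding SREBP1, had 4466 in Lmnb1 KD cells and 3632 in control cells (log2 fold change 0.30, SE 0.10, deposited adjusted p = 0.015). Insig1 (0.23), Scap (0.17) and Insig2 (0.14) did not pass. Both calls were small, and neither held once the GC and length trend was subtracted: Srebf2 then had 0.19 (adjusted p = 0.12) and Srebf1 0.13 (adjusted p = 0.40). The exons of Srebf1 share 109 bases with the antisense gene Rai1, and whether reads were counted by strand is not stated in the labels or methods.

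Of the 18 sterol synthesis enzymes, Mvk alone was called higher, none was called lower, and 17 did not pass, beside 25.1% of all tested genes called in either direction. Their median log2 fold change was -0.01, and the median of its absolute value was 0.16, beside 0.21 for all tested genes. Mvk (chr5:114444269-114460591, plus strand), which encodes mevalonate kinase, had 619 normalized counts in Lmnb1 KD cells and 467 in control cells (log2 fold change 0.41, SE 0.15, deposited adjusted p = 0.031). With the trend subtracted Mvk had 0.31 (adjusted p = 0.15), so this call also rests on the scale used. For 16 of the 18 enzymes the interval lay within 1.5-fold in either direction, the exceptions being Mvk and Idi1, and for all 18 it lay within 2-fold.

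Along the pathway the signs were mixed. Acat2, which joins acetyl-CoA units, had 0.21, and Hmgcs1, HMG-CoA synthase, had -0.02 (1129 normalized counts in Lmnb1 KD cells and 1144 in control cells). After Mvk, Pmvk (phosphomevalonate kinase) had 0.19 and Mvd (mevalonate decarboxylase) 0.09, whereas Idi1 (isopentenyl diphosphate isomerase) had -0.29 and Fdps (farnesyl diphosphate synthase) -0.09. The 7 enzymes from Acat2 to Fdps were split into 4 positive and 3 negative fold changes. Among the 11 enzymes from squalene onward 4 were positive and 7 negative. They ran from -0.21 for Msmo1, a sterol methyl oxidase, to 0.30 for Dhcr7, which carries out a last step to cholesterol. Fdft1, squalene synthase, had -0.01 (1767 normalized counts in Lmnb1 KD cells and 1774 in control cells), and Sqle, squalene epoxidase and a flux-controlling step, had -0.19. Lss, which closes the sterol rings, had 0.06 and Cyp51, which removes a methyl group from lanosterol, had -0.15. Tm7sf2, Nsdhl, Hsd17b7, Ebp and Sc5d, enzymes of the steps in between, ranged from -0.18 to 0.16. Dhcr7 came closest to a call, with 1184 normalized counts in Lmnb1 KD cells and 963 in control cells (log2 fold change 0.30, SE 0.12, deposited adjusted p = 0.057). The split of the pathway at squalene was chosen after the values were seen.

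The enzymes that make palmitate did not pass, beside 25.1% of all tested genes called in either direction. Acly, which supplies cytosolic acetyl-CoA from citrate, had 7608 normalized counts in Lmnb1 KD cells and 8046 in control cells, a log2 fold change of -0.08. Fasn, fatty acid synthase, had 7752 in Lmnb1 KD cells and 8026 in control cells, -0.05 (interval -0.23 to 0.13). Acaca, the cytosolic acetyl-CoA carboxylase that makes malonyl-CoA, had 1620 in Lmnb1 KD cells and 1958 in control cells (log2 fold change -0.27, SE 0.11, deposited adjusted p = 0.052), just outside the threshold. Acacb, the mitochondrial form that regulates fatty acid oxidation, was scarce at 42.0 in Lmnb1 KD cells and 30.5 in control cells, and its interval ran from -0.39 to 1.31, so a difference of 2-fold cannot be told from none. With the trend subtracted, Acaca (-0.32, adjusted p = 0.026) and Fasn (-0.26, adjusted p = 0.027) were called lower, beside 9.57% of all tested genes. Reads of Acaca may be shared with Gm5182, which matches 64.3% of its longest transcript at 95% identity.

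The stearoyl-CoA desaturases were higher in Lmnb1 KD cells. These enzymes place the first double bond in saturated fatty acids and so set the ratio of oleate and palmitoleate to their saturated precursors. Scd1 (chr19:44394455-44407879, minus strand) had 11815 normalized counts in Lmnb1 KD cells and 8436 in control cells (log2 fold change 0.49, SE 0.09, deposited adjusted p = 4.6e-06). Scd2 (chr19:44293674-44306864, plus strand), 87.6 kb away, had 31277 in Lmnb1 KD cells and 25961 in control cells (log2 fold change 0.27, SE 0.09, deposited adjusted p = 0.022). The call of Scd1 held with the trend subtracted (0.53, adjusted p = 6.3e-07), and that of Scd2 fell just short (0.24, adjusted p = 0.056). Of the Scd2 transcript, 11.4% matches Scd1 at 95% identity, so some reads could count for either. The remaining 5 of the 7 desaturation and elongation genes did not pass. Among all tested genes 25.1% were called in either direction. The desaturases of polyunsaturated fatty acids, Fads1 (0.12) and Fads2 (0.05), which lie 81.1 kb apart on the same chromosome, and the elongases Elovl1 (0.11), Elovl5 (-0.11) and Elovl6 (-0.11) all had intervals within 1.5-fold.

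Of the 3 acyl-CoA ligases, which activate fatty acids for lipid synthesis or oxidation, Acsl3 alone was called, beside 25.1% of all tested genes. Acsl3 (chr1:78657825-78707743, plus strand), a ligase of the endoplasmic reticulum and lipid droplets, had 3258 normalized counts in Lmnb1 KD cells and 2621 in control cells (log2 fold change 0.31, SE 0.10, deposited adjusted p = 0.0072). Its low GC content (43.2%) puts it among genes that as a whole had negative fold changes, and with the trend subtracted it had 0.48 (adjusted p = 2.0e-05). The exons of Acsl3 share 244 bases with Utp14b on the same strand. Acsl1 had -0.14 and Acsl4, which prefers arachidonate, -0.02.

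Of the 7 genes of glycerolipid and phosphatidylcholine synthesis, 1 was called higher and 2 lower. Among all tested genes 12.0% were called higher and 13.1% lower. The median log2 fold change of the 7 was -0.24, beside -0.01 for all tested genes. Chka (chr19:3851773-3894369, plus strand), choline kinase alpha, which phosphorylates choline in the first step of the pathway, had 1428 normalized counts in Lmnb1 KD cells and 1946 in control cells (log2 fold change -0.45, SE 0.11, deposited adjusted p = 0.00063). Chpt1 (chr10:88452745-88504073, minus strand), the cholinephosphotransferase of the last step, had 665 in Lmnb1 KD cells and 887 in control cells (log2 fold change -0.42, SE 0.13, deposited adjusted p = 0.011). Between them, Pcyt1a, the cytidylyl-transferase that limits the rate of the pathway, had 3257 in Lmnb1 KD cells and 3114 in control cells, with a log2 fold change of 0.06 (interval -0.13 to 0.26). Its paralog Pcyt1b had -0.02 at a level 14.2-fold lower per kb of transcript.

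Lpcat1 (chr13:73467197-73516422, plus strand), the acyltransferase that makes the dipalmitoyl form of phosphatidylcholine in type II cells, was higher, with 3130 normalized counts in Lmnb1 KD cells and 2472 in control cells (log2 fold change 0.34, SE 0.10, deposited adjusted p = 0.0066). Gpam, the mitochondrial acyltransferase that begins glycerolipid synthesis, had 503 in Lmnb1 KD cells and 644 in control cells (log2 fold change -0.36, SE 0.15, deposited adjusted p = 0.070) and did not pass. Agpat2, which makes phosphatidic acid, had -0.24 as deposited and was called lower only with the trend subtracted (-0.41, adjusted p = 0.025). With the trend subtracted the call of Chka held (-0.47, adjusted p = 0.00037) and so did that of Lpcat1 (0.28, adjusted p = 0.039), whereas Chpt1, whose GC content of 37.9% was the lowest of the 45, had -0.18 (adjusted p = 0.38). Chpt1 shares 660 exon bases with the antisense gene Sycp3, and Chka shares 165 and 74 with the antisense transcripts AC133523.2 and Gm16066. These antisense reads cannot be told apart from those of the gene if counting ignored strand.

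Mgll had the largest difference of the 45. Mgll (chr6:88724412-88828360, plus strand) encodes monoglyceride lipase, which splits monoacylglycerols into fatty acid and glycerol, among them the endocannabinoid arachidonoylglycerol, and it is a lipid-breakdown enzyme rather than a synthetic one. It had 1895 normalized counts in Lmnb1 KD cells and 720 in control cells, 2.63-fold (log2 fold change 1.40, SE 0.12, interval 1.16 to 1.63, deposited adjusted p = 2.9e-29). The call held with the trend subtracted (1.27, adjusted p = 3.6e-24). Its exons share 167 bases with the antisense transcript Gm26588.

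Levels per kb of the longest transcript spread over a wide range. By this measure 31 of the 45 genes lay above the median of the tested genes and 12 in the fifth that ranked highest, with a median percentile of 66.3. Scd2 had the highest level (5734 normalized counts per kb in Lmnb1 KD cells and 4759 in control cells), followed by Scd1 (2445 in Lmnb1 KD cells and 1746 in control cells) and Fads1 (1907 in Lmnb1 KD cells and 1756 in control cells). Scd2 and Scd1 together made up 23.3% of the summed level per kb of the 45, with Scd2 2.50-fold above Scd1. The sterol enzymes ranged 12.5-fold, from 74.3 per kb for Tm7sf2 to 932 for Fdps. Acaca exceeded Acacb 45.6-fold per kb. Without values per library, neighbors in this order cannot be set apart by replicate spread.

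**Figure D3:**
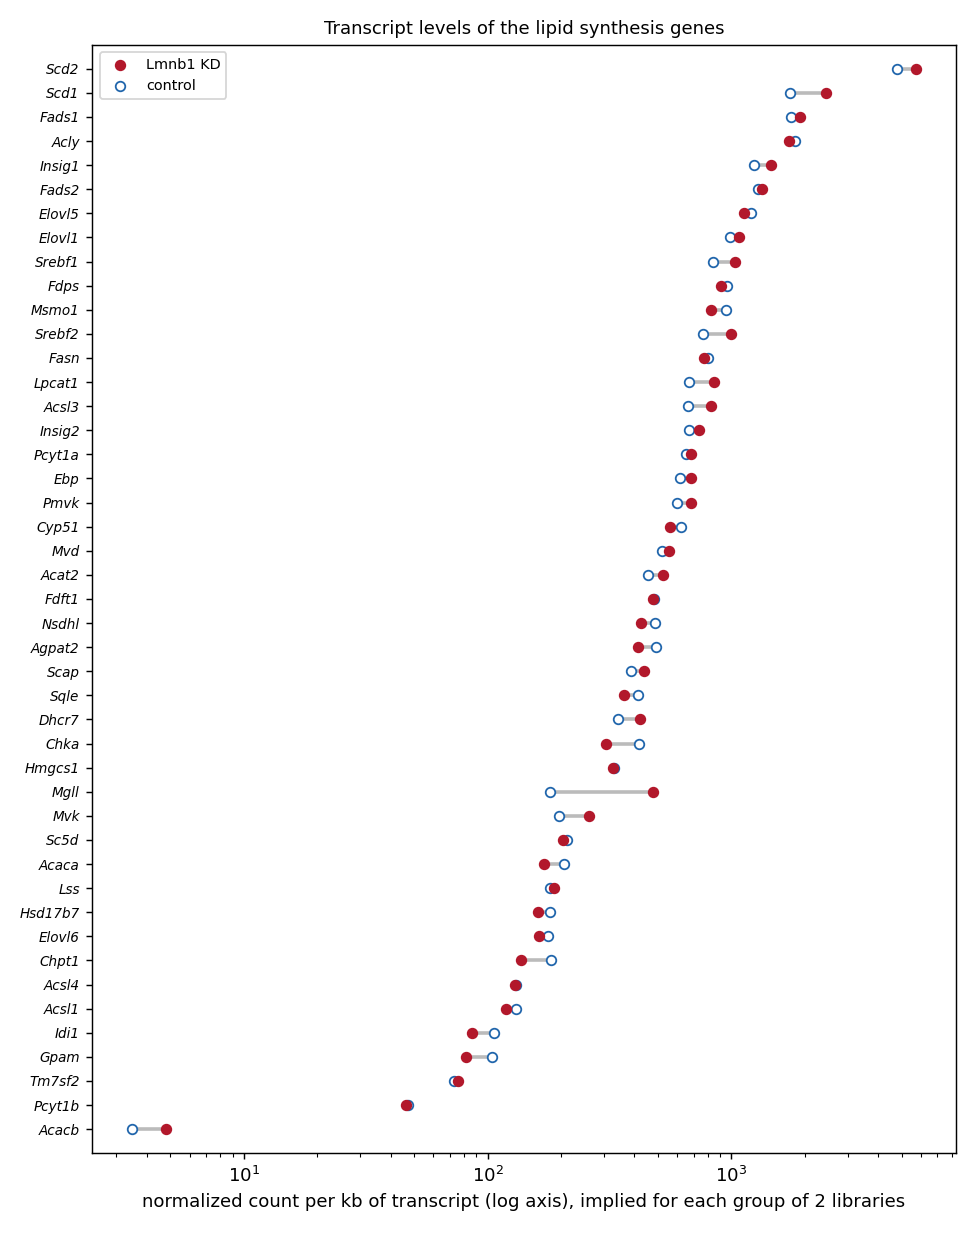
Normalized count per kb of transcript (x axis, log scale) of the 45 genes in descending order of mean level (y axis), with filled red points for Lmnb1 KD and open blue points for control cells, each derived from the deposited mean of the 4 libraries and the fold change, without error bars. The widest gap between the groups is that of Mgll, and Scd2 and Scd1 head the order.

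Fold changes followed transcript GC content across the whole table. Over the 11572 tested genes with a GC content, Spearman's rho of the log2 fold change with GC content was 0.39, and over the 45 lipid genes it was 0.47. Both are descriptions across genes of the same 4 libraries, and genes are not independent replicates. When tested genes were cut into 5 equal bins by GC content, the median log2 fold change was -0.18 in the most GC-poor bin and 0.15 in the most GC-rich bin. The 7 lipid genes in the GC-poor bin had a median of -0.06 and the 9 in the GC-rich bin 0.19. Of the 9 in the GC-rich bin, Srebf1, Srebf2 and Mvk were called higher. After a smooth trend on GC content and log transcript length was subtracted from all tested genes, 9 of the 45 were called (5 higher, 4 lower), beside 19.1% of the tested genes (9.51% higher, 9.57% lower). Acsl3, Chka, Lpcat1, Mgll and Scd1 were called both ways. Srebf1, Srebf2, Mvk, Scd2 and Chpt1 lost their call, and Insig2 (0.28, adjusted p = 0.045), Acaca, Fasn and Agpat2 gained one. Insig2, Fasn and Agpat2 are named because of these values.

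**Figure D4:**
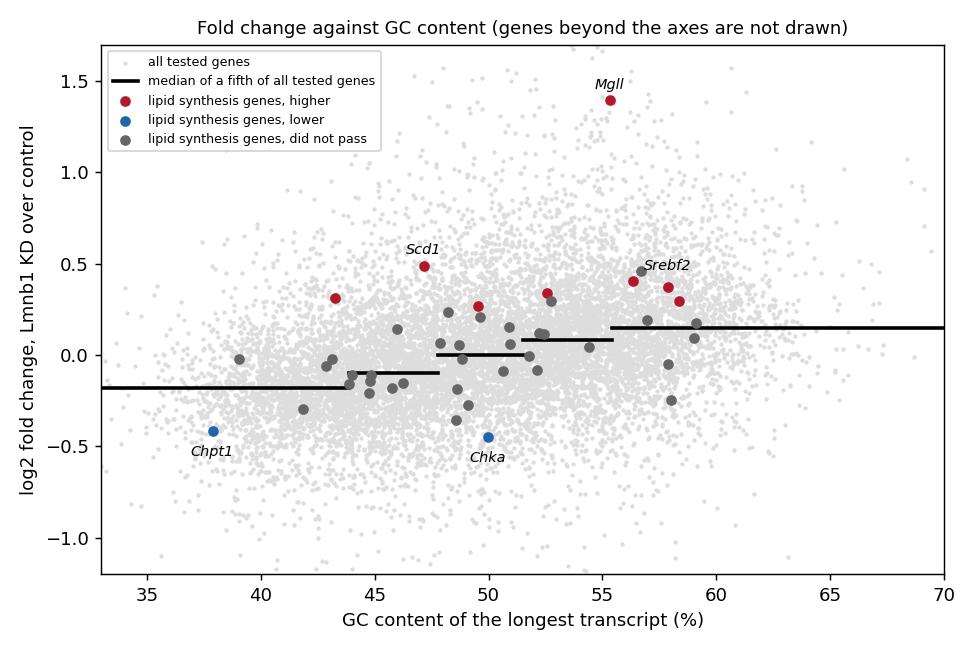
Log2 fold change (Lmnb1 KD over control, y axis) against GC content of the longest transcript (x axis, percent). Gray points are tested genes, black bars the medians of 5 equal bins of them by GC content, which lie between -0.18 in the GC-poor bin and 0.15 in the GC-rich bin, and colored points the 45 lipid genes by call.

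Reads could also be shared between genes. For 10 of the 45, at least 10% of the longest transcript matched another gene at 95% identity over at least 100 bases. Matches were counted on either strand, and genes at the same place were not left out. Hmgcs1, Pcyt1a and Scap reached 10% only through antisense genes whose exons overlap theirs. These genes therefore also count among the overlaps on the opposite strand given below. The 10% limit was chosen after the values were seen. The largest match was that of Acat2 with Acat3 (65.6%), and Fdft1 with Gm6781 (33.7%) and Idi1 with Gm13502 (22.6%) were others. Exons of 19 genes overlapped those of another gene, in 15 cases on the opposite strand. Values of these genes are therefore less certain.

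Genes of neighboring lipid pathways were called in 16 of 93 cases tested (17.2%), beside 25.1% of all tested genes, with a lower Vldlr and a higher Cds1 as the largest differences. With the trend subtracted, 15 of the 93 were called, beside 19.1% of all tested genes. Acat1 (0.34, adjusted p = 0.0026), Lipa (0.37, adjusted p = 0.0067) and Slc44a1 (0.30, adjusted p = 0.018) were then called higher. Tecr (-0.30, adjusted p = 0.011) and Gpat4 (-0.24, adjusted p = 0.043) were then called lower. None of these genes passed as deposited, and they are named because of these values. Of 7 other sterol synthesis genes tested, Por alone was called as deposited. It encodes the reductase that passes electrons to sterol cytochromes. Por had 2816 normalized counts in Lmnb1 KD cells and 2023 in control cells (log2 fold change 0.48, deposited adjusted p = 0.00038). Of 13 uptake and transport genes, 1 was higher and 1 lower. Vldlr, the very low density lipoprotein receptor, had 702 in Lmnb1 KD cells and 2124 in control cells (log2 fold change -1.60, SE 0.13, deposited adjusted p = 5.3e-30), and Npc2, which carries cholesterol out of lysosomes, had 0.53. Of 6 liver X receptor and efflux genes, 2 were higher, Abca7 (0.39) and Nr1h2 (0.30), which encodes the receptor LXR beta. Neither kept its call with the trend subtracted (adjusted p = 0.26 for Abca7 and 0.42 for Nr1h2).

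The remaining lists each had between 11.8% and 23.5% of their tested genes called, beside 25.1% of all tested genes. Of 13 genes that supply fatty acid synthesis, Slc25a1, the mitochondrial citrate carrier, was higher (0.35) and Mlx, a partner of the carbohydrate-responsive factor ChREBP, was lower (-0.36). The call of Slc25a1 was lost with the trend subtracted (0.19, adjusted p = 0.27). Of 20 genes of fatty acid oxidation 2 were higher, Acaa2 (0.55) and Acadl (0.29), and 1 was lower, Etfa (-0.24), whose call was lost with the trend subtracted (-0.14, adjusted p = 0.28). Of 17 triglyceride and lipid droplet genes 2 were higher and none was lower: Lipe, hormone-sensitive lipase, which acts just before Mgll in lipolysis, had 337 in Lmnb1 KD cells and 202 in control cells (log2 fold change 0.74, deposited adjusted p = 0.0031), and Plin3, a droplet coat protein, had 0.30 (0.27 with adjusted p = 0.056 after the trend was subtracted). Of 17 other phospholipid genes 3 were higher and 1 lower. Cds1, which makes CDP-diacylglycerol for phosphatidylinositol, had 637 in Lmnb1 KD cells and 312 in control cells (log2 fold change 1.03, SE 0.19, deposited adjusted p = 1.9e-06), and Ptdss2, a phosphatidylserine synthase, had 0.46. Selenoi, the ethanolamine counterpart of Chpt1, listed as Ept1, was lower (-0.47, deposited adjusted p = 0.00086).

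**Figure D5:**
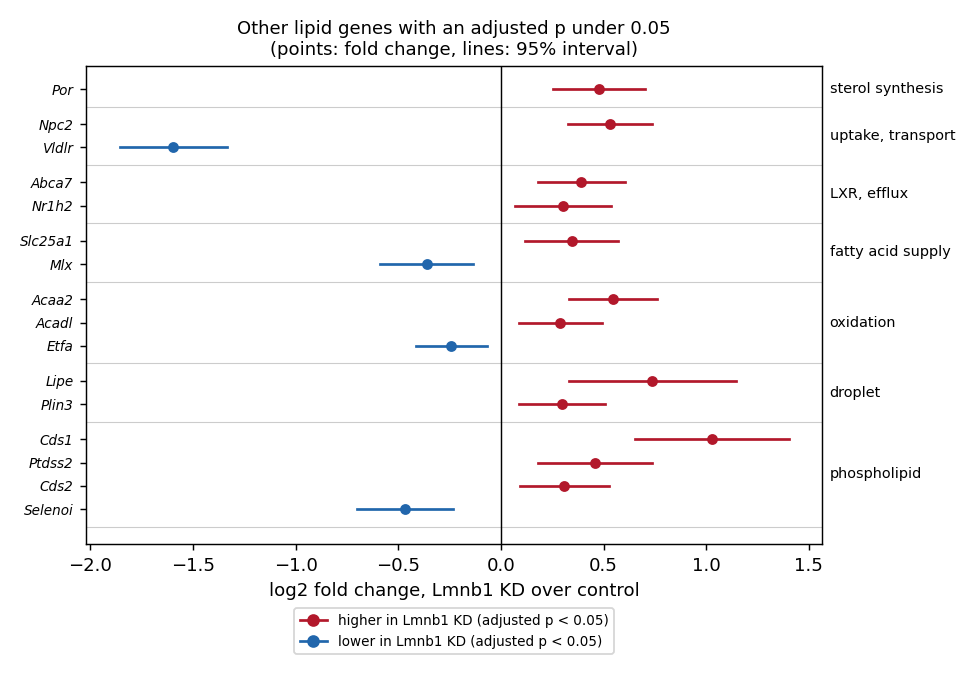
Log2 fold change (Lmnb1 KD over control, x axis) with 95% intervals of the lipid genes outside the 45, from the lists described above, that had an adjusted p under 0.05, grouped by list (y axis). Vldlr at -1.60 and Cds1 at 1.03 are the only ones beyond a 2-fold difference.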

How the data were processed

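RNA of 2 Lmnb1 KD and 2 control MLE12 libraries (polyA selection, 1 µg of RNA, Ion Torrent sequencing) had been trimmed with Reaper and mapped to mm10 with STAR by the authors. Tool versions were not given in the sources used here, nor how reads were counted and by which strand. The deposited table holds the authors' DESeq2 comparison: for each gene the mean of its normalized counts (a signal), a log2 fold change of Lmnb1 KD over control, a p-value and its adjusted p-value. For rare genes the deposited log2 fold change may be shrunk toward 0, which the methods do not state. It would then understate the difference, and so would the group levels derived from it. Depth per library was not analysed here. 112 rows without values, 103 of them repeats of an identifier, were left out, and 0 columns of other samples were present.

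Deposited p-values were taken as they are, since the table has no values per library, and new p-values were computed only for the trend-subtracted fold changes, from the recovered SE. The 45 genes and all lists were chosen with earlier results of these data known. The SE was recovered as the absolute fold change over the z value that its two-sided p-value implies. The group levels were derived from the mean level and the fold change. Adjusted p-values recomputed from the deposited p-values differed by at most 7.4e-12 in relative terms. Positions, GC content and transcript length came from GENCODE M21 (GRCm38), and promoters from RefSeq. The GC and length trend was a least-squares spline over the 11572 tested genes with both, followed by Benjamini-Hochberg adjustment. It was tried on simulated data with a linear GC trend only, so the length part was not tested. Alternatives were adjusted p thresholds of 0.01 and 0.1, adjustment over all genes with a p-value, a mean level of at least 100, a fold threshold of 1.5, and, chosen after seeing the data, a trend that includes mean level. Named with values were genes with an adjusted p under 0.05 or between 0.05 and 0.1, the 3 of highest level per kb, and up to 3 called genes of each other list, or its gene of highest level where none was called. Genes that gained a call with the trend subtracted were named as well. The remaining members are given so that all 45 are accounted for. Python 3.11.15, numpy 2.4.6, pandas 2.3.3, scipy 1.17.1, matplotlib 3.10.9 and BLAST 2.17.0 were used.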

Additional observations from a re-analysis of the deposited data

How the results depend on the processing

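The call of Mgll as the 1 gene past the study's thresholds, with 0 lower, stood under every alternative run, and the median log2 fold change stayed between 0.02 and 0.05. Without a fold threshold, 10 genes were called (8 higher, 2 lower). At an adjusted p of 0.01 these were 6 (5 higher, 1 lower), and at 0.1 there were 13, 4 of them lower. With the trend on GC content and length subtracted, 5 were higher and 4 lower, beside 19.1% of all tested genes called. With mean level in the trend as well, 10 were called (7 higher, 3 lower), Scd2 among them and Fasn not. No share of all tested genes was computed at 0.01, at 0.1 or with mean level in the trend. Those counts are therefore not set against a background. Of the 17 genes followed singly, 8 kept their side of the threshold when the GC and length trend was subtracted, 5 lost a call and 4 gained one, and none changed sign. Adjustment over all genes with a p-value changed none of the 17. Leaving out each library could not be run, because the deposited comparison gives no values per library. No paired analysis was possible because the deposited table gives no values per library, although the sample titles carry replicate numbers. With 2 libraries a group, an SE of about 0.11 limits the smallest difference that can be called.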
